A study of Mus musculus with 6 samples.

Results

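Endothelial identity genes encode the junction proteins, receptors and secreted proteins by which the cells that line blood vessels are usually recognised. The set held 10 genes, Pecam1, Cdh5, Tie1, Tek, Vwf, Eng, Emcn, Cldn5, Esam and Egfl7, and was defined by a list of names, with no cutoff on measured values. The names were chosen with earlier results of these data known, so counts of members beside shares of all genes are descriptions only. For each gene the probe set with exactly 1 gene symbol equal to the member was taken, and all 10 had 1 such probe set among the 22180 named genes tested. The cells were primary lung fibroblasts of wild-type male C57BL/6 mice aged 8 weeks, enriched from digested whole lung, grown on plastic with serum and passaged at most 3 times. Wells of these cells were exposed for 24 h to purmorphamine, labelled as 5um and read here as 5 µM, or to vehicle alone. There were 3 wells and 3 Affymetrix arrays in each of the 2 groups. The labels describe the wells as splits of isolated cells without naming the mice behind each one, so p-values cover well-to-well spread only, which may be technical. Replicate 3 of both groups lay apart from the other 4 arrays on the second principal component, which held 13.2% of the variance.

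The junction between endothelial cells is held by VE-cadherin (Cdh5) and PECAM-1 (Pecam1), with claudin-5 (Cldn5) in the tight junction and ESAM (Esam) beside it. Tek and Tie1 encode the paired Tie receptor tyrosine kinases, of which Tek binds angiopoietins, and Eng encodes endoglin, a co-receptor for BMP9 and TGF-beta ligands. Vwf encodes von Willebrand factor, which is stored in Weibel-Palade bodies and tethers platelets, Emcn encodes the sialomucin endomucin, and Egfl7 a secreted matrix-bound protein. Several of these genes are not confined to endothelium: Pecam1 is also made by platelets and myeloid cells, Vwf by megakaryocytes, and Eng by macrophages and activated fibroblasts. Purmorphamine is a small molecule that binds and activates Smoothened, the Hedgehog pathway protein upstream of the Gli transcription factors.

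Many endothelial genes carry binding sites of ETS factors near their start, and the start regions are shown here because 3 ETS factor genes changed in these cultures, as described further on. RefSeq promoter sequence (GRCm38.p6) was at hand for 6 of the 10 members, in 8 windows of 250 bases upstream of a start. Tie1 was the only member that rose among these 6, Tek encodes its partner receptor, and Eng and Emcn were 2 bright members that did not pass the test. Sequences run 5′ to 3′ on the gene's strand, and capitals mark the ETS motifs AGGAAG and CGGAAG and the Gli motif CCACCCA on either strand.
Tie1, chr4:118489850-118490099, minus strand: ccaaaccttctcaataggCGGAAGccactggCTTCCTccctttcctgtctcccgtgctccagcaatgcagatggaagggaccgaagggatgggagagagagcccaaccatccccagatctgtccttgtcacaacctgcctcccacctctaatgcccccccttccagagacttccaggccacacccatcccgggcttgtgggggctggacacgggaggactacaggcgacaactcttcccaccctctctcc
Tek, chr4:94739039-94739288, plus strand: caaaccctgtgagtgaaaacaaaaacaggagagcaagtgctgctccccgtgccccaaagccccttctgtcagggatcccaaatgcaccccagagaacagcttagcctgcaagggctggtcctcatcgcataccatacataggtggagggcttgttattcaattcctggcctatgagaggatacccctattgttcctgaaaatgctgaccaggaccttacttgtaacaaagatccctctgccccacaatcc
Eng, chr2:32646345-32646594, plus strand: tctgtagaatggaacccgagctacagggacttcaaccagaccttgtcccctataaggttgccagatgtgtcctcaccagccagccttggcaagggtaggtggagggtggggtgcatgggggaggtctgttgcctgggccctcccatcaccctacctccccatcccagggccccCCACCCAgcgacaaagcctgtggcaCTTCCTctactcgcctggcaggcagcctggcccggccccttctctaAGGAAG
Emcn, chr3:137340828-137341077, plus strand: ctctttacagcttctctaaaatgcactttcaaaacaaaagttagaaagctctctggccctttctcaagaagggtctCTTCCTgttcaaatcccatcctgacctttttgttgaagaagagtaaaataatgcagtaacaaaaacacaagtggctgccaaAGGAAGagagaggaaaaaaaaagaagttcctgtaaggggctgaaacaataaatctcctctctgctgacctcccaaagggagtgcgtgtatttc
The Tie1 window held 2 ETS motifs, with first bases at -232 and -219 from the start, and the Eng window held 2, at -52 and -6. The Emcn window held 2 at -174 and -93, and the Tek window held 0. The Gli motif was found in 1 of the 8 windows, that of Eng at -77. At least 1 ETS motif was present in 5 of the 8 windows and in 39.2% of all 32851 promoter windows of this length, and the Gli motif in 8.11% of them. Of the 8 windows, 3 belonged to Egfl7, with 3, 1 and 0 ETS motifs, and are not printed, so windows do not stand for separate genes. These searches describe letters only, and none of the motifs overlapped another in the printed windows.

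Treated and vehicle wells were compared to see which of these genes differed after exposure to a Smoothened agonist. Of the 10 genes, Vwf, Tie1, Cdh5 and Pecam1 rose, by 1.23-fold to 1.41-fold, and 0 fell (limma, Benjamini-Hochberg adjusted p under 0.05 over all genes, n = 3 per group). Over all genes tested, 7.18% rose and 7.16% fell by the same rule. At an unadjusted p under 0.05, 7 of the 10 were higher and 0 lower, where 14.1% of all genes were higher and 14.1% lower. Tek, Esam and Egfl7 had positive differences that did not pass the test, and Eng, Emcn and Cldn5 had differences between -0.06 and 0.02 on the log2 scale. The median difference of the 10 genes was 0.21, against -0.01 for all genes. In whole cultures, a larger share of cells of a type and more RNA per cell cannot be told apart. Purmorphamine values lay above every vehicle value in 6 of the 10 genes, where 17.1% of all genes tested showed that order, and below in 0. Without replicate 3 of both groups, which leaves 2 arrays against 2, Vwf kept its call (adjusted p = 0.0317) and Pecam1 (0.0729), Cdh5 (0.111) and Tie1 (0.187) did not, at differences of 0.33 to 0.35.

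**Figure D1:**
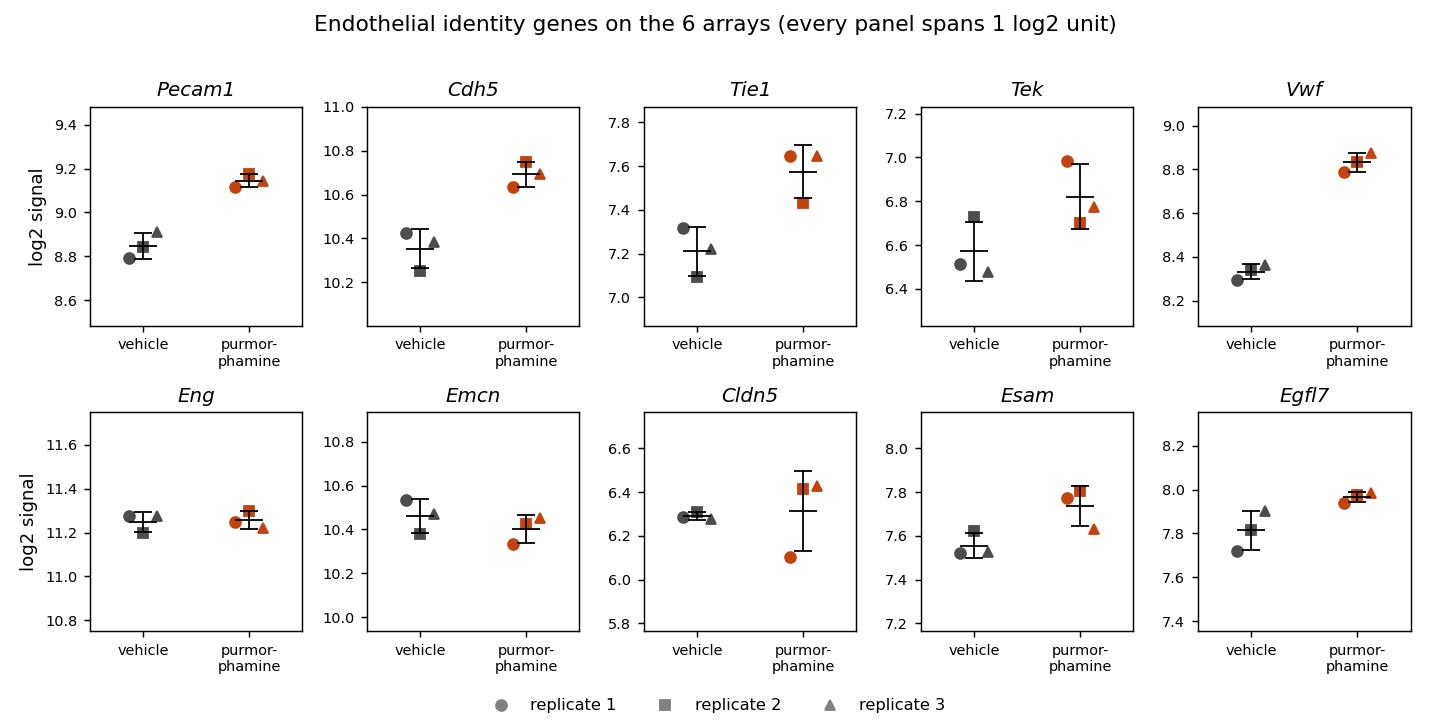
Log2 signal (y axis) of each endothelial identity gene on the 3 vehicle and 3 purmorphamine arrays (x axis), with symbols for replicates and bars for the mean and SD. Vwf, Cdh5, Pecam1 and Tie1 separate fully between the groups, while the values of Eng, Emcn, Cldn5 and Tek overlap.

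Vwf changed by the widest margin. Its log2 signal was 8.30, 8.34 and 8.36 on the vehicle arrays and 8.79, 8.84 and 8.88 on the purmorphamine arrays. The groups were 0.43 apart at their nearest values, and within each group the values lay close together. Vwf rose from 8.33 ± 0.03 to 8.83 ± 0.04 (SD, n = 3), a difference of 0.50 (SE 0.05, limma adjusted p = 0.0014) or 1.41-fold. It passed the test in all 17 alternative settings in which single genes were followed, with adjusted p up to 0.0317. Of these, the threshold of 0.1 could not undo a call. The settings on probe sets left the difference at 0.50, because Vwf had 1 probe set. At 1.41-fold Vwf did not reach the further setting, a fold of at least 1.5.

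Among the junction genes, Cdh5, which encodes the adherens junction cadherin of endothelium, read 10.43, 10.25 and 10.38 with vehicle and 10.64, 10.75 and 10.69 with purmorphamine. The 3 purmorphamine values lay above the 3 vehicle values, with 0.21 between the nearest arrays. Cdh5 rose by 0.34 (SE 0.07, limma adjusted p = 0.0154), 1.27-fold, from 10.35 ± 0.09 to 10.69 ± 0.06 (SD, n = 3). Without purmorphamine replicate 2 or replicate 3 the adjusted p was 0.0525 and 0.0520, just above 0.05, with differences of 0.31 and 0.34.

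Pecam1, the gene of an adhesion receptor that clusters at endothelial contacts, read 8.79, 8.84 and 8.91 with vehicle and 9.12, 9.17 and 9.14 with purmorphamine. Its groups were also 0.21 apart at their nearest values. Pecam1 rose by 0.30 (SE 0.05, limma adjusted p = 0.0128), 1.23-fold, and passed the test with each single array left out (adjusted p 0.0239 to 0.0475).

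Esam, a junctional immunoglobulin-like molecule, read 7.52, 7.62 and 7.52 with vehicle and 7.77, 7.81 and 7.63 with purmorphamine. The groups nearly touched, with 0.01 between vehicle replicate 2 and purmorphamine replicate 3. The difference of 0.18 (95% interval 0.03 to 0.34, limma adjusted p = 0.124) did not pass the test. Cldn5, the main claudin of tight endothelial barriers, read 6.29, 6.31 and 6.28 with vehicle and 6.10, 6.41 and 6.43 with purmorphamine. Purmorphamine replicate 1 lay below all vehicle arrays and the other two above them, and the difference was 0.02 (-0.20 to 0.24, adjusted p = 0.910).

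Of the Tie receptors, Tie1, which binds no angiopoietin strongly itself and modulates its partner, read 7.31, 7.09 and 7.22 with vehicle and 7.64, 7.43 and 7.65 with purmorphamine. In both groups replicate 2 was the lowest, and the groups were 0.12 apart. Tie1 rose by 0.36 (SE 0.09, limma adjusted p = 0.0313), 1.29-fold, from 7.21 ± 0.11 to 7.57 ± 0.12 (SD, n = 3). That call depended on the arrays used: leaving out vehicle replicate 2 gave an adjusted p of 0.0931 and vehicle replicate 3 gave 0.0823, and leaving out purmorphamine replicate 1 gave 0.104 and purmorphamine replicate 3 gave 0.0988.

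Tek, the angiopoietin receptor, read 6.51, 6.73 and 6.48 with vehicle and 6.99, 6.70 and 6.77 with purmorphamine. Vehicle replicate 2 exceeded purmorphamine replicate 2, so the groups overlapped. Its difference of 0.25 had a 95% interval of 0.01 to 0.48 and an adjusted p of 0.155 in limma, and the interval also covers the difference found for Tie1. Whether Tie1 and Tek responded differently was not tested.

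Endoglin and endomucin were bright and close to level. Eng read 11.27, 11.20 and 11.27 with vehicle and 11.25, 11.30 and 11.22 with purmorphamine, a difference of 0.01 (95% interval -0.12 to 0.13, limma adjusted p = 0.949). Emcn read 10.54, 10.38 and 10.47 with vehicle and 10.33, 10.42 and 10.45 with purmorphamine, a difference of -0.06 (-0.21 to 0.09, adjusted p = 0.614). In both genes the values of the groups interleaved. The upper limits of the intervals corresponded to 1.10-fold for Eng and 1.07-fold for Emcn, below the fitted 1.23-fold to 1.41-fold of the genes that rose. Egfl7, which encodes a secreted regulator of vessel tube formation, read 7.72, 7.82 and 7.90 with vehicle and 7.94, 7.97 and 7.98 with purmorphamine. All purmorphamine values were above the vehicle values, by 0.04 at the nearest, and the difference of 0.15 (0.01 to 0.30, adjusted p = 0.163) did not pass the test. A further probe set annotated to both Egfl7 and a microRNA gene was not used.

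**Figure D2:**
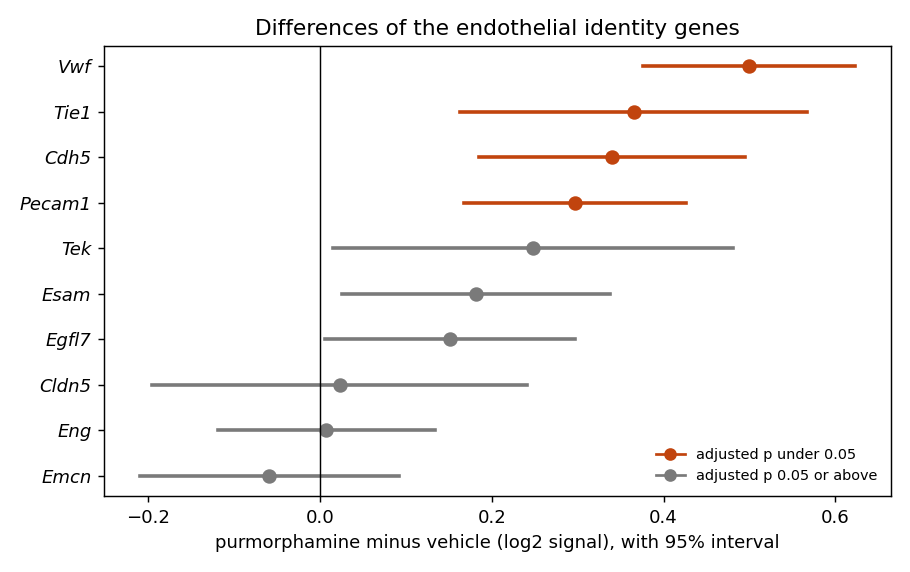
Difference of each endothelial identity gene, purmorphamine minus vehicle in log2 signal (x axis), with its 95% interval from the fit and the genes ordered by difference (y axis). The interval lies above 0 in 7 genes, of which the 4 in orange passed the test after adjustment over all genes.

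Taken within each array, the Cdh5 signal minus the Emcn signal was -0.11, -0.13 and -0.09 with vehicle and 0.30, 0.33 and 0.24 with purmorphamine. The groups did not overlap, and the shift was 0.40. Vwf minus Eng was -2.98, -2.85 and -2.91 with vehicle and -2.46, -2.47 and -2.34 with purmorphamine, a shift of 0.49. The exact two-sided permutation test gave p = 0.1 for each (0.1 after adjustment over these 2 pairs), the smallest value that 3 arrays against 3 allow, so this test could not pass a threshold of 0.05. Both pairs were chosen after their values were seen, and shifts in these differences show unequal change within an array and not which of the genes changed.

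The members spanned a wide range of signal levels. RMA, the authors' processing, compresses changes of dim probe sets, and a probe set's level also depends on its probes, so levels of different genes are only rough marks. The mean signals of the 10 genes lay between the 39.3 percentile (Cldn5) and the 96.6 percentile (Eng) of all genes tested. On every array Cdh5, Eng and Emcn were above the upper quartile of genes, which was 8.85 to 8.90, and Cldn5 was below the median, which was 6.93 to 6.96. Of 26 measured genes typical of retina, lens, pancreas, liver, muscle, neurons, kidney, gut and germ cells, the brightest were Actn3 (7.50) and Gfap (6.64), and the median was 5.74. The signals of 7 endothelial identity genes exceeded that of Actn3, whereas Tie1 (7.39), Tek (6.70) and Cldn5 (6.30) did not, and Cldn5 was also below Gfap.

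All genes were divided into 3 classes of equal size by mean signal. In the brightest class, above 8.26, lay 5 members, and 3 of these rose, where 14.3% of all genes there rose. The other 5 lay in the middle class, and 1 of these, Tie1, rose, where 6.37% of all genes did, and the dimmest class held 0 members. The fitted differences had a median SE of 0.058 in the brightest class and 0.0773 in the middle class. The SE of Tek was 0.0986 and that of Cldn5 0.0926, against 0.0533 for Eng and 0.0522 for Vwf. Level and SE did not run in step for single members: Egfl7, in the middle class, had an SE of 0.0616, below those of the brighter Emcn (0.0639) and Cdh5 (0.0656). The 2 members of the middle class with the largest SE thus had differences up to 0.48 and 0.24 within their 95% intervals, and changes of that size were not resolved for them.

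**Figure D3:**
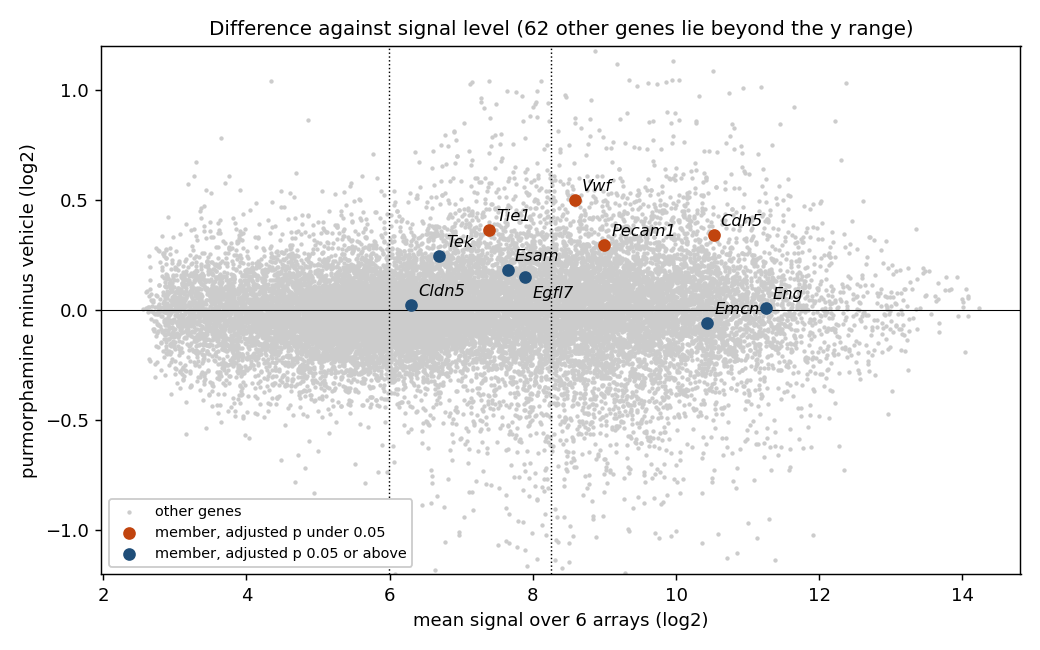
Mean signal over the 6 arrays in log2 units (x axis) against the difference, purmorphamine minus vehicle in log2 units (y axis), for all genes in grey and the endothelial identity genes in colour, with dotted lines at the borders between the 3 classes of signal. Genes above and below 0 occur at every level, and the bright members Cdh5 and Emcn, at similar signal, lie 0.40 apart.

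Other genes of endothelial cells did not follow the 4 that rose as a group. Of 26 other endothelial surface and secreted genes, 1 rose and 4 fell, with a median difference of 0.00. Over all genes 7.18% rose and 7.16% fell, and the list counts below are set beside the same shares. Clec14a, an endothelial C-type lectin, rose by 0.38. Selp, which encodes P-selectin and shares the Weibel-Palade store with von Willebrand factor, fell by 0.42, Ednrb, an endothelin receptor, by 0.28, and Cd93, a receptor of endothelium and myeloid cells, by 0.21. The remaining fall was that of the phosphatase gene Ptprb, taken up with the Tie receptors. Kdr, which encodes the main VEGF receptor and was chosen after its value was seen, differed by 0.06 (limma adjusted p = 0.53). With single arrays left out, the calls of Clec14a and Ednrb were lost in 5 and 1 of 6 cases and that of Cd93 in all 6, while Selp kept its call in 6.

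Transcription factors of the endothelial programme went both ways, with 2 of 14 raised and 4 lowered, beside 7.18% and 7.16% of all genes. Erg, an ETS factor found in endothelium and little in leukocytes, rose by 0.42, from 7.41 ± 0.12 to 7.83 ± 0.07 (SD, n = 3, limma adjusted p = 0.0115). Fli1 and Ets1, ETS factors that leukocytes also make, fell by 0.60 (adjusted p = 9.88e-04) and 0.36 (0.0191), and Mef2c fell by 0.52 (0.0011). Lyl1 (0.35) rose and Lmo2 (-0.33) fell, and both were chosen after their values were seen. The calls of Erg, Fli1 and Mef2c were kept with any 1 of the 6 arrays left out, and those of Ets1, Lyl1 and Lmo2 were lost in 4, 4 and 3 cases.

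Around the Tie receptors, 2 of 8 genes rose and 2 fell, beside 7.18% and 7.16% of all genes. Angpt2, the angiopoietin that endothelial cells store and release, rose by 0.31 (SE 0.07, limma adjusted p = 0.0315) and Svep1, a matrix protein reported to bind Tie1, by 0.28 (0.0251). Ptprb, the phosphatase VE-PTP that acts on Tek and Cdh5 protein, fell by 0.23 (0.0401), and the adaptor gene Dok2, which leukocytes also make, fell by 0.63 (0.0021). Angpt1, the activating ligand, differed by 0.28 at a dim mean signal of 5.14 and did not pass (0.157). With 1 array left out the Ptprb call was lost in 6 of 6 cases and those of Angpt2 and Svep1 in 5 each, and Dok2 kept its call in 6.

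Of 12 partners of VE-cadherin and of tight junctions, 1 rose and 0 fell, beside 7.18% and 7.16% of all genes. The rise was that of Jam2, a junctional adhesion molecule of endothelium and fibroblasts, by 0.42 (limma adjusted p = 0.0101), which was kept in all 6 cases with 1 array left out. The catenin genes Ctnnb1, Ctnna1 and Ctnnd1, whose products belong to the VE-cadherin complex, differed by -0.02, -0.18 and -0.15 and did not pass. Of 14 receptors, ligands and Smads around endoglin, 4 rose and 1 fell. Tgfbr3, which encodes betaglycan, the co-receptor related to endoglin, rose by 0.43 (adjusted p = 0.0030), Smad4 by 0.23 and the inhibitory Smad6 by 0.21, Tgfb3 fell by 0.39, and the remaining rise was that of the BMP receptor gene Bmpr2 (0.28), named to complete the count. Acvrl1, the type I receptor that works with endoglin in endothelium, differed by 0.11 (adjusted p = 0.42). The Smad4 and Smad6 calls were lost in all 6 cases with 1 array left out, that of Bmpr2 in 5, and those of Tgfbr3 and Tgfb3 in 0.

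Markers of the other cell types in the cultures moved in the same arrays. Fibroblast transcripts were bright, led by Fn1 (13.67) and Col1a1 (12.93), and so were macrophage transcripts, led by Lyz2 (13.99) and Cd68 (13.27). Of 12 fibroblast markers 8 rose and 2 fell, beside 7.18% and 7.16% of all genes. Pdgfra rose by 0.83, Col1a2 by 0.48, Dcn by 0.46 and Fbln1 by 0.34. Thy1 fell by 0.32 and Col14a1 by 0.27. With 1 array left out the Col14a1 call was lost in 4 of 6 cases and that of Thy1 in 0. Among the rises, the call of Lum was lost in all 6 cases and that of Col1a1 in 4, and the other rises kept theirs. The mean log2 signal of the 12 fibroblast markers ran per array from 9.72 to 9.80 with vehicle and from 10.00 to 10.05 with purmorphamine. Of 16 leukocyte markers 1 rose and 8 fell, and the list mean ran from 11.75 to 11.78 with vehicle and from 11.28 to 11.34 with purmorphamine. Among leukocyte genes, Itgam fell by 1.46 and the complement genes C1qc, C1qb and C1qa fell by 1.34, 1.30 and 1.35, while Lyz2 and Cd68 did not pass the test, with differences of 0.05 and 0.13. The leukocyte rise was that of Itgax, by 0.31 (limma adjusted p = 0.0116), named to complete the count and kept in all 6 cases with 1 array left out. For comparison, the mean of the 10 endothelial identity genes ran from 8.46 to 8.48 with vehicle and from 8.66 to 8.68 with purmorphamine. The part of these shifts in the rises of Vwf, Cdh5, Pecam1 and Tie1 was not tested.

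Cells that share single members with endothelium were also looked at. Of 7 measured platelet and megakaryocyte markers 1 rose and 3 fell: Ppbp fell by 0.97, Pf4, which macrophages can also make, by 0.66 and Gp6 by 0.38, and Itgb3, which other cells also make, rose by 0.40. Their list mean ran from 8.41 to 8.46 with vehicle and from 8.07 to 8.23 with purmorphamine. Itga2b, which defines the lineage, was at a mean of 6.46, between the members Cldn5 (6.30) and Tek (6.70). Of 5 measured lymphatic markers Pdpn, also a fibroblast gene, rose by 0.26, and 0 fell, and the defining genes Lyve1 and Prox1 were dim at 6.60 and 6.54. Their list mean ran from 7.76 to 7.91 with vehicle and from 7.77 to 7.79 with purmorphamine. The log2 of their summed signals, mostly Pdpn (11.64), ran from 11.76 to 11.83 with vehicle and from 11.96 to 12.02 with purmorphamine. Of 12 mural cell markers 3 rose and 3 fell. Rgs5, a pericyte gene, rose by 1.22, Notch3 by 0.43 and Pdgfrb by 0.38. Myh11 fell by 0.47, Cspg4 by 0.31 and Acta2 by 0.19. The mural list mean ran from 8.45 to 8.49 with vehicle and from 8.56 to 8.57 with purmorphamine. The log2 of the summed mural signals ran the other way, from 14.55 to 14.56 with vehicle and from 14.38 to 14.41 with purmorphamine. That sum is mostly Acta2, at a mean signal of 14.03 against 11.17 for Myh11, the next brightest. The part of these markers in the endothelial values was not tested. Of the 26 genes of other tissues, 0 rose and 1, Pou4f1, fell, by 0.29, beside 7.18% and 7.16% of all genes. With 1 array left out the calls of Gp6 and Pou4f1 were lost in 5 of 6 cases each and that of Pdpn in 4. The Cspg4 call was lost in 4 cases and the Acta2 call in all 6.

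**Figure D4:**
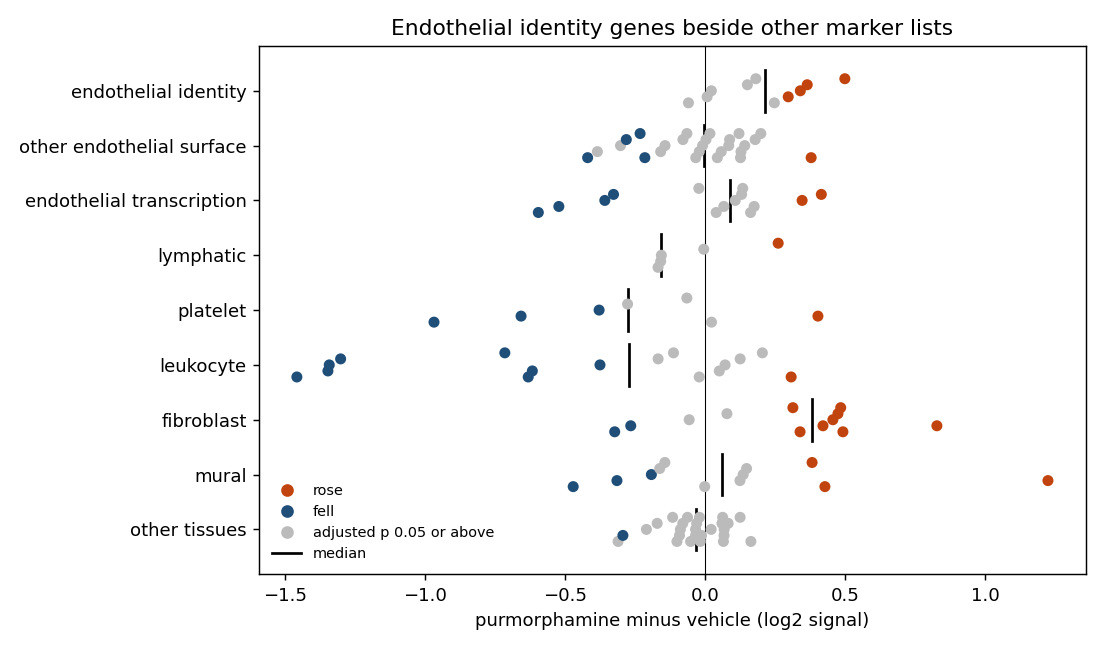
Difference of every measured gene, purmorphamine minus vehicle in log2 signal (x axis), in the endothelial identity set and 8 other marker lists (y axis), with 1 point per gene, colour for the call and a black line at the list's median. The medians of the endothelial identity genes (0.21) and fibroblast markers (0.38) lie to the right of 0, and those of the leukocyte (-0.27) and platelet (-0.28) lists to the left.

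The genes whose 6 values ran most like those of Vwf were Ccdc88a, Fndc3a and Scai, with Pearson r of 0.999, 0.999 and 0.998 over the 6 arrays. All 3 rose, by 0.56, 0.23 and 0.30, and with both groups in the correlation any gene with a tight rise scores high. For Eng, the member with the highest mean signal, they were Fem1al (0.992), Wnt8b (0.988) and Wdr70 (0.986), of which none passed the test, with limma adjusted p of 0.809, 0.786 and 0.813, and the first 2 were dim, at mean signals of 5.17 and 5.02. With only 6 arrays and 22180 genes such likeness is a description.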

How the data were processed

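RNA of 6 wells, 3 with vehicle and 3 with purmorphamine, was measured on 1 array each. The authors' deposited values are log2 signals, 1 per probe set and array. The submitters' processing notes name oligo, RMA and limma without versions. RMA gives arrays a common distribution, so a change shared by all genes would not be seen. Array medians lay between 6.34 and 6.39, and the number of arrays limits the precision.

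Of 41345 probe sets, 23521 had 1 gene symbol in the platform annotation, 1814 had several and 16010 had none there. For each of the 22180 genes named by 1 symbol, the probe set with the highest mean was kept, and identifiers of all 10 members matched the RefSeq gene table. In limma 3.58.1 (R 4.3.3), lmFit and eBayes gave purmorphamine minus vehicle from 6 arrays, with no filter or block. The test was two-sided, p-values were adjusted by Benjamini-Hochberg across all genes, and the threshold was 0.05. Adjusted p-values are from this fit unless the text names left-out arrays, another setting or a permutation test. Lists are described by counts and medians, without set tests. The members and lists were chosen with earlier results of these data known. The naming rule took all members, at most 4 called genes of each list by smallest p, the brightest 2 genes of the fibroblast, leukocyte and other-tissue lists, and 3 most similar genes for 2 members, and further genes are named to complete a count or as members of interest that did not pass, chosen after their values were seen. The alternatives were other scalings, an offset of 50, leaving out genes below a mean signal of 5.99, other handling of probe sets, other variance models, a block for replicate number, array weights, leaving out single arrays, other thresholds and, chosen after seeing the data, leaving out replicate 3 of both groups. Plots were drawn with Python 3.11.15 and matplotlib 3.10.9.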

Additional observations from a re-analysis of the deposited data

How the results depend on the processing

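Of 170 recomputed differences of the 10 genes, 153 kept their direction and side of the threshold, 10 lost a call and 7 changed sign, all 7 in genes that had not passed. The fold of at least 1.5 was not among the settings behind these 170, and the threshold of 0.1 could not undo a call. The number of members that rose was 4 and ran from 2 to 4 with 1 array left out (2 without purmorphamine replicate 3), was 1 without replicate 3 of both groups, and 0 with a fold of at least 1.5 required. It was 4 in the other settings run except the replicate block, and 0 members fell in any setting. Over all genes 3181 were called, against 1967 to 2374 with 1 array left out (leaving out vehicle replicate 2 gave 2034 and vehicle replicate 3 gave 2110, purmorphamine replicate 1 gave 1967 and purmorphamine replicate 3 gave 2065), 951 without replicate 3 of both groups and 525 at a fold of at least 1.5. The first 2 of these settings have fewer samples. The count was higher with an offset of 50 (4456), with the dim genes left out (4342), with a trend and robust variance model (4697) and at a threshold of 0.1 (4554). With the trend and robust model 2416 of all genes rose, against 1593 in the main fit, while 4 members rose in both. The sign of Eng changed with quantile normalization (-0.0069) and with 1 array left out (-0.018 to 0.025). That of Cldn5 changed with array weights (-4.4e-05), without replicate 3 of both groups (-0.041) and with 1 array left out (-0.034 to 0.13). For these 2 genes the cause was not tested.

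Replicate numbers are shared between the groups, but nothing in the labels ties them, and deviations of same-numbered arrays correlated at 0.11, 0.024 and 0.10, so pairing was not taken as given, although each array correlated best with its own number. With the replicate block, 2432 genes and 3 members were called, and Cdh5 missed the threshold (adjusted p = 0.0520).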
